A study of Mus musculus with 14 samples.

Results

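The 7 libraries described here are those labelled dcKO, for double conditional knockout, out of 14 in the study. They comprise 3 libraries of telencephalon and 4 libraries of cerebral cortex, from embryos at days 12.5 (E12.5) and 18.5 (E18.5) of gestation. They were chosen by the genotype word of the deposited count columns, and the tables of both ages were joined on gene ID. In the study, mice carrying floxed Sbno1, mice carrying floxed Trp53 and the Emx1-Cre driver line were bred together, and messenger RNA was sequenced from a stranded library kit. Sbno1 is the mouse counterpart of the fly gene strawberry notch, and Trp53 encodes the transcription factor p53. The remaining 7 libraries, 3 at E12.5 and 4 at E18.5, are labelled ff, a word that the labels do not spell out and that is read here as floxed alleles without the driver. No group carried the driver alone or a knockout of a single gene, so the driver, each deletion and their combination cannot be told apart. Emx1-Cre recombines floxed DNA in progenitors of the dorsal telencephalon and in the cells they produce. Interneurons born in the ventral telencephalon, microglia, vessels, meninges and diencephalic cells lie outside that lineage. Stage, dissected region and count table change together between the groups and cannot be told apart in any value below. The labels do not say that the libraries of a group came from separate embryos, so the p-values measure only the spread between these samples, which may be technical.

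During this week of gestation the dorsal telencephalon turns from a dividing epithelium into a layered cortex. Radial glia divide at the ventricle and give rise, directly or through intermediate progenitors, to deep-layer neurons and later to upper-layer neurons. Near birth the remaining radial glia begin to form astrocytes and oligodendrocyte precursors, while interneurons arrive from the ventral telencephalon and neurons extend axons and assemble synapses.

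Total expected counts (reads assigned to genes by RSEM) were 42.0 M to 54.8 M at E12.5, where M is 1e+06 counts. E18.5 replicate 2 was far shallower, with 5.98 M, against 48.6 M to 53.9 M in replicates 3, 12 and 13 of that age. The labels conflict on which library is which: for 13 of the 14 samples the library name in the description matches the title of a different sample, of the other genotype in 8 and of the other age in 6. Here the genotype comes from the word in the column name (dcKO, or dfl for the group titled ff), the age from the table that holds the column, and the replicate number from the column name, which matches 1 title of that age and genotype. If the descriptions were right instead, the groups would differ from those used here. Single-library values are given throughout in the order replicates 2, 6 and 10 at E12.5 and replicates 2, 3, 12 and 13 at E18.5. Correlations of log CPM (counts per 1e+06 of the TMM-scaled library) were 0.9893 to 0.9941 within E12.5, 0.9594 to 0.991 within E18.5 and 0.900 to 0.9387 between the ages. The first principal component held 71.5% of the variance and separated the ages, and the second, with 16.2%, separated the shallow E18.5 replicate 2 from the other E18.5 libraries. E18.5 replicate 12 stood apart in choroid plexus RNA: Ttr, the transthyretin gene of that epithelium, had 1.82 TPM there (TPM, reads scaled to transcript length and library size), against 2464 to 3203 TPM in E18.5 replicates 2, 3 and 13. All 7 dcKO libraries carried chromosome Y transcripts, whereas 3 of the 7 ff libraries carried Xist instead. Results for the later age are given for the libraries labelled dcKO, because Sbno1 counts, described next, do not show whether the label holds.

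The targeted genes and the driver locus were examined first. Sbno1 counts were 79.1, 71.2 and 67.5 CPM at E12.5 and 78.4, 69.0, 75.8 and 72.9 CPM in the libraries labelled dcKO at E18.5. The ages overlapped, with a log2 fold change of 0.02 (SE 0.07, adjusted p = 0.78 in edgeR's quasi-likelihood test). That value depends on the processing. It was 0.48 on log2(TPM + 1) without TMM scaling (adjusted p = 0.011 in limma). After a correction for transcript length it was -0.44 (adjusted p = 5.63e-06 in edgeR). The correction takes out each library's trend with length, and so also any length trend that differs between the ages. Trp53 was at 106, 112 and 109.5 CPM at E12.5 and at 59.8, 74.8, 62.6 and 68.8 CPM at E18.5, without overlap, and fell by 0.71 on the log2 scale (SE 0.07, adjusted p = 6.72e-06 in edgeR). Emx1, a homeobox gene of dorsal progenitors and the locus that drives Cre, fell from 33.0 ± 1.47 to 15.4 ± 0.99 CPM (SD, n = 3 and 4), a log2 fold change of -1.09. Its relative Emx2 fell by 1.31, and the p53 relative Trp63 fell from 3.71 ± 0.37 to 0.41 ± 0.28 CPM (SD, n = 3 and 4). The epidermal keratin Krt5 fell too (-9.55), and the part of carried epidermis in the Trp63 change was not tested. The floxed exons are not named in the labels, and counts over a whole gene include exons that remain, so these values do not measure deletion.

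Over the whole transcriptome 12210 of 18483 tested genes (66.1%) passed the threshold, an adjusted p under 0.05, between the ages. Of all genes tested 32.7% were higher at E18.5 and 33.3% were lower, and the median log2 fold change was 0.01. At least a 2-fold change was found for 4426 genes (23.9%), 2811 higher (15.2% of those tested) and 1615 lower (8.74%). For 66.2% of the genes tested the 3 early and 4 late libraries did not overlap. Each list of genes below is therefore given by its counts and its median beside these shares, and a list near them says nothing particular about its members. On log2(TPM + 1) in limma, without TMM scaling and with 16203 genes tested, the median of all genes was 0.185. The share of higher genes among the calls was 64.6% there and 49.5% on counts. Fold changes also rose with transcript length (Spearman rho 0.193 across 17774 genes, which are not independent replicates), from a median of -0.25 in the shortest to 0.25 in the longest of 5 equal groups. Within each age, a library's deviation from its group mean was also set against length. Spearman rho was 0.383, -0.202 and -0.354 at E12.5, and -0.0147, -0.27, 0.236 and 0.0691 at E18.5.

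**Figure D1:**
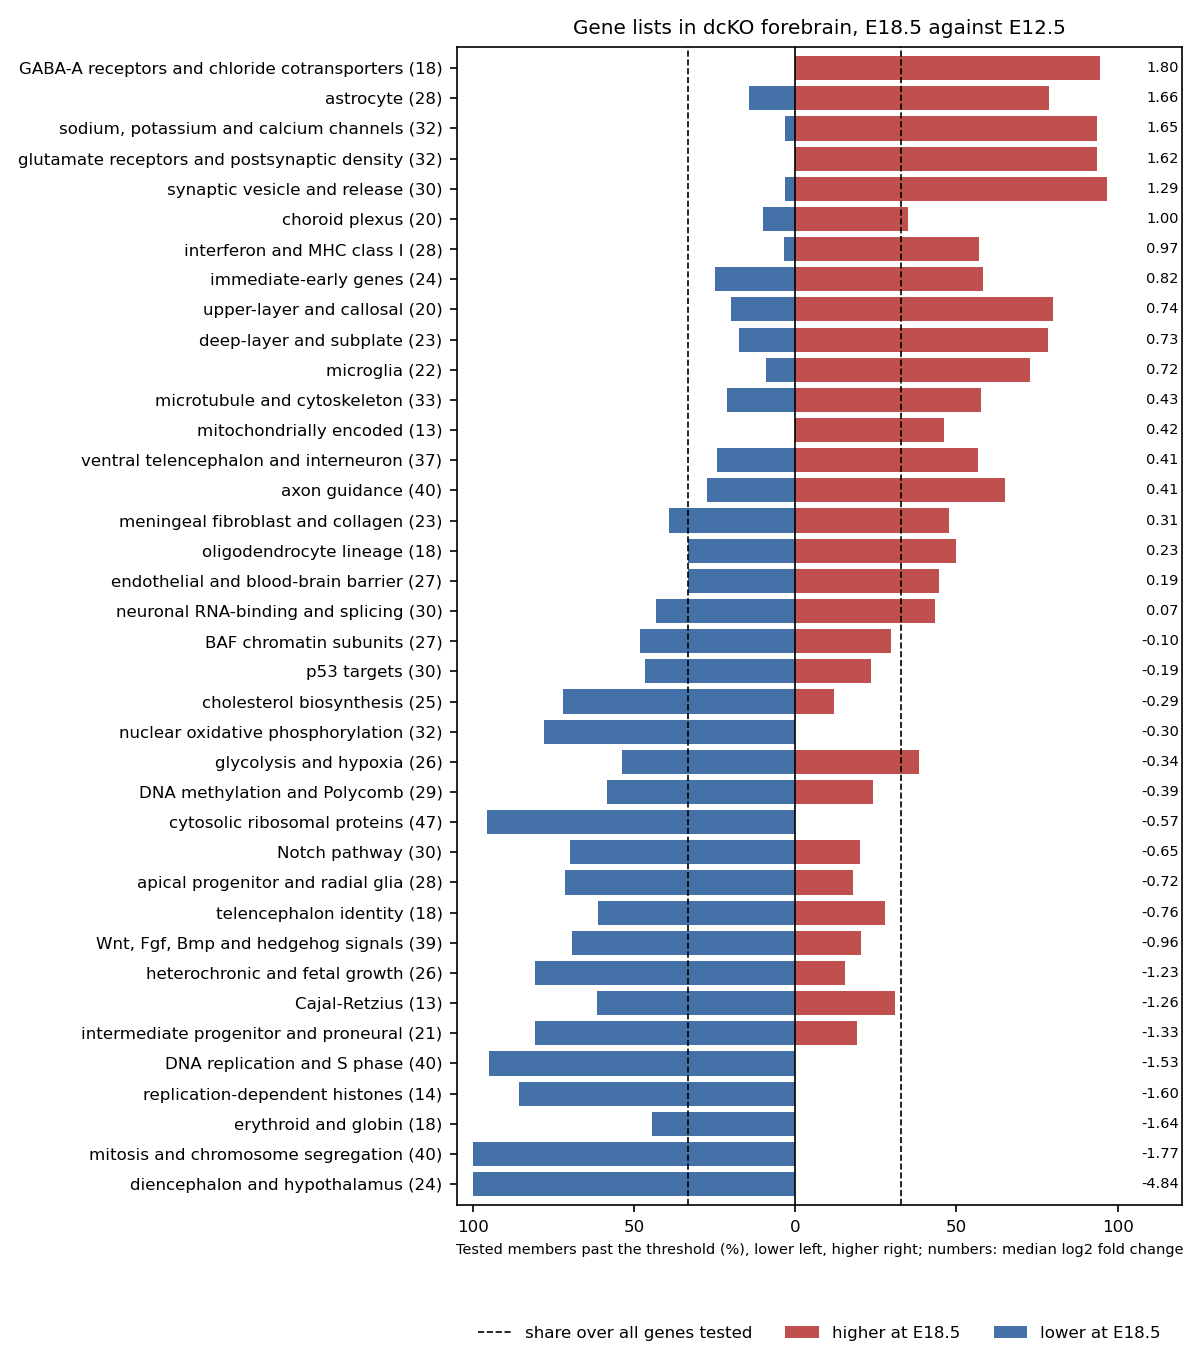
Share of tested members past the threshold in each gene list, lower at E18.5 to the left and higher to the right, with the number tested in parentheses and the median log2 fold change at the right edge. The dashed lines mark 32.7% higher and 33.3% lower over all 18483 genes; all 40 mitotic and all 24 diencephalic genes lie on the lower side, and 29 of 30 synaptic vesicle genes on the higher side.

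The cell cycle machinery fell throughout. Of 40 genes of mitosis and chromosome segregation, all 40 were lower at E18.5 and all 40 by at least 2-fold (median log2 fold change -1.77). Of 40 genes of DNA replication and S phase, 38 were lower and none was higher, 34 of them by at least 2-fold (median -1.53). Cdc20, an activator of the anaphase-promoting complex, was at 136, 145 and 149.6 CPM at E12.5 and at 28.7, 36.3, 31.9 and 32.8 CPM at E18.5. Ccnb2, a mitotic cyclin, was at 60.6, 69.8 and 66.1 CPM and then at 16.9, 15.9, 14.6 and 16.3 CPM. Every late library was below every early one for both genes, by 2.13 (SE 0.07) and 2.06 (SE 0.07) on the log2 scale. Ube2c, the ubiquitin-conjugating enzyme that works with Cdc20, had the largest change of the mitotic list (log2 fold change -2.39, SE 0.07). The kinetochore gene Spc25 (-2.18), the chromosomal passenger Birc5 (-2.15), the cyclin Ccnb1 (-2.13) and the centromeric histone Cenpa (-2.09) followed. Mki67, the proliferation antigen, changed less (-1.25, SE 0.09).

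Replication genes changed by similar amounts. Mcm3, a subunit of the replicative helicase, was at 163, 169 and 170.5 CPM at E12.5 and at 38.0, 44.4, 43.1 and 43.3 CPM at E18.5, again without overlap (log2 fold change -1.97, SE 0.06). Rrm2, the regulatory subunit of ribonucleotide reductase, had the largest change of its list (-2.16), followed by the thymidylate synthase Tyms (-2.14) and the DNA methylation cofactor Uhrf1 (-2.13). Thymidine kinase Tk1 (-2.01), the helicase subunit Mcm2 (-2.01) and Orc1 of the origin recognition complex (-2.06) fell alike, and the sliding clamp Pcna fell less (-1.46). Adjusted p-values of the genes named in these 2 groups ran from 7.18e-10 (Ube2c, Mcm2) to 2.74e-07 (Orc1) in edgeR. Of 14 replication-dependent histone genes tested 12 were lower and none was higher (median -1.60), but most lie near the detection limit of a method that selects polyadenylated RNA, and 5 further members were too low to test.

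Because so many mitotic genes moved together, their promoter letters are shown. Mitotic promoters are known for the cell cycle homology region (CHR), bound by the DREAM and MuvB complexes, and for CCAAT boxes bound by NF-Y, while S phase promoters are known for E2F sites. The windows run from 250 bases before to 50 bases after the annotated start (RefSeq, GRCm38.p6), are written 5′ to 3′ on the gene's strand, and have CHR (TTTGAA or TTCGAA) and CCAAT in capitals for Ccnb2 and Cdc20 and E2F (TTTCCCGC, TTTGGCGC, TTTCGCGC or TTTGCCGC) in capitals for Mcm3, found on either strand. They lie at chr9:70421505-70421804, minus strand (Ccnb2), chr4:118437294-118437593, minus strand (Cdc20), and chr1:20820263-20820562, minus strand (Mcm3).
Ccnb2: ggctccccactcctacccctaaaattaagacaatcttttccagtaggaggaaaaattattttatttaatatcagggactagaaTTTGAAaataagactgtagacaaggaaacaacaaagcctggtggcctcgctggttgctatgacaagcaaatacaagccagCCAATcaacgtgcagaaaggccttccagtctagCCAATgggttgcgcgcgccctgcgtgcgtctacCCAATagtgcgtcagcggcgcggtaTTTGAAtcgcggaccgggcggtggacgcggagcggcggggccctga
Cdc20: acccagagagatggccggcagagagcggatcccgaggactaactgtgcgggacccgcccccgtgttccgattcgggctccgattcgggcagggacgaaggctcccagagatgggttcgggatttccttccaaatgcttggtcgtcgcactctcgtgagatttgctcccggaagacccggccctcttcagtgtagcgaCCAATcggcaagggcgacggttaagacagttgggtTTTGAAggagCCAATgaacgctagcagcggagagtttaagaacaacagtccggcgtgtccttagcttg
Mcm3: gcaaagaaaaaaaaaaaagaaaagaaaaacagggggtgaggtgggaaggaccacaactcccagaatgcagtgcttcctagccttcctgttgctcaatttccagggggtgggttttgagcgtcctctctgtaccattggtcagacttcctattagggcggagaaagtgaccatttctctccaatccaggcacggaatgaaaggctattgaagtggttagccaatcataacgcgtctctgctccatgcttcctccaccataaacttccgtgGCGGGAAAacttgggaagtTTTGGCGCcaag
A CHR together with a CCAAT box lay in 26 of 35 windows of the mitotic list (74.3%, for 33 of its 40 genes), and in 7.52% of all 32851 windows of this length. An E2F match lay in 14 of 38 windows of the replication list (36.8%, for 32 of its 40 genes) and in 2.26% of all windows. In the synaptic vesicle list, where 29 of 30 genes were higher at E18.5, the shares were 6.67% for CHR with CCAAT and 3.33% for E2F, over 30 windows. E2F matches lay in 2.86% of the mitotic windows, and a CHR with a CCAAT box in 15.8% of the replication windows. Such matches are letters in a window and not measured binding.

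Radial glia genes fell as a group, with exceptions. Of 28 apical progenitor markers 20 were lower, 5 higher and 3 not past the threshold (median -0.72). Pax6, a transcription factor of cortical radial glia, was at 117.7, 123.8 and 124.6 CPM at E12.5 and at 49.3, 50.7, 46.7 and 47.9 CPM at E18.5, a log2 fold change of -1.33 (SE 0.05, adjusted p = 4.72e-09 in edgeR). Nestin (Nes), the intermediate filament of neural progenitors, was at 545, 524 and 506 CPM and then at 179.6, 157, 159 and 152 CPM (-1.70, SE 0.07). In both genes the lowest early library stood more than 2 times above the highest late one. The chromatin protein Hmga2, which marks young neural stem cells, fell most (from 89.3 ± 3.67 to 2.41 ± 0.34 CPM; SD, n = 3 and 4; -5.27), and the early progenitor factor Sox3 (-1.95), the membrane protein prominin Prom1 (-1.90) and the Notch effector Hes5 (-1.66) fell too. The 5 that rose were the matrix protein tenascin Tnc (2.59), the glutamate transporter Slc1a3 (1.35), the phosphatase Ptprz1 (0.80), Hopx (0.47) and the lipid carrier Fabp7 (0.22), which are known from late radial glia and astrocytes; the change of Fabp7 missed the threshold without E12.5 replicate 6 (adjusted p = 0.0796 in edgeR) or E18.5 replicate 3 (0.056), and that of Hopx was 0.23 with counts thinned to the shallowest library (0.236).

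Genes of the neurogenic cascade mostly fell. Of 21 intermediate progenitor and proneural genes 17 were lower and 4 higher (median -1.33). Neurog2, the proneural factor of the dorsal telencephalon, was at 143, 158 and 159 CPM at E12.5 and at 41.8, 36.0, 27.2 and 33.6 CPM at E18.5 (log2 fold change -2.18, SE 0.12). Neurog1 fell further, from 15.1 ± 0.90 to 0.66 ± 0.10 CPM (SD, n = 3 and 4; -4.52), and the Notch ligand Dll3 (-2.41), Nhlh1 (-2.24), Nhlh2 (-2.06) and Neurod4 (-2.60) fell as well. Eomes, the defining factor of intermediate progenitors, fell least among the lower genes named here, from 94.8, 88.4 and 86.6 CPM to 66.8, 62.6, 59.2 and 61.4 CPM (-0.53, SE 0.06). The neuronal differentiation factors Neurod2 (1.67) and Neurod6 (1.40) and the E-protein Tcf4 (1.09) rose. In bulk RNA, fewer cells of a type and less RNA per cell cannot be told apart, here and in the groups that follow.

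**Figure D2:**
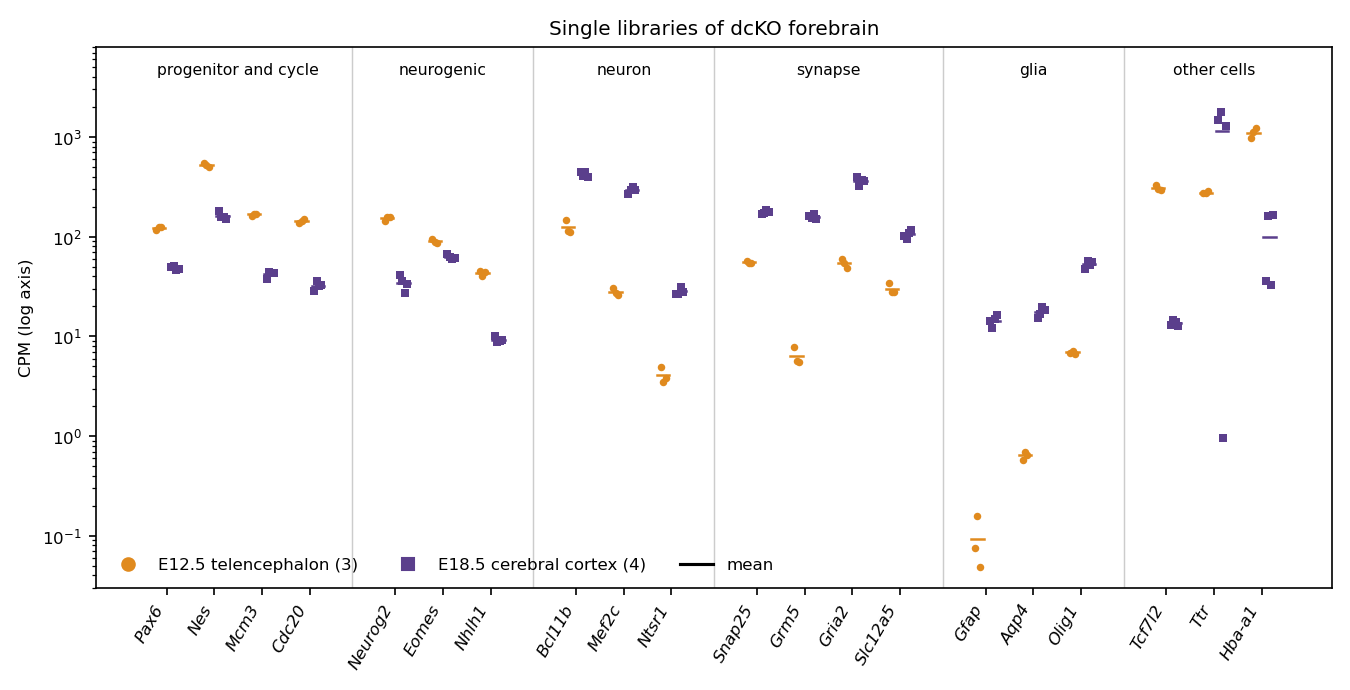
CPM of single dcKO libraries on a log axis, circles for 3 E12.5 telencephalon libraries, squares for 4 E18.5 cortex libraries and bars for the mean, for progenitor, neurogenic, neuronal, synaptic and glial genes and for markers of other cells. The E18.5 squares of Ttr split into 3 libraries at 1289 CPM or more and replicate 12 at 0.96 CPM, and those of Hba-a1 into a pair near 34 CPM and a pair near 163 CPM.

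Most cortical projection neuron genes rose, of deep and of upper layers. Of 23 deep-layer and subplate genes 18 were higher and 4 lower (median 0.735), and of 20 upper-layer and callosal genes 16 were higher and 4 lower (median 0.74). Bcl11b, a factor of subcerebral projection neurons that striatal neurons also express, was at 148, 113 and 111 CPM at E12.5 and at 447, 407, 447 and 396 CPM at E18.5 (log2 fold change 1.77, SE 0.11). Mef2c, an activity-regulated transcription factor and the upper-layer gene with the largest rise of those named here, was at 30.4, 27.4 and 25.9 CPM and then at 269.8, 295, 312 and 294 CPM (3.39, SE 0.08). E12.5 replicate 2 was the highest early library for both, yet far under every late library. The part of its length trend, given above, in this was not tested. Ntsr1, a receptor of layer 6 neurons, rose by 2.79, Syt6 by 2.45, Hs3st4 by 2.08 and Ldb2 by 1.71. Among other upper-layer genes Inhba (3.14), the netrin receptor Unc5d (2.03), Lmo4 (1.38) and Cux2 (1.35) rose. Tbr1 (0.56) and Fezf2 (0.37), early regulators of deep-layer fate, rose less. Against their lists, the subplate genes St18 (-1.69) and Nxph4 (-1.51) and the formin Diaph3 (-1.12) fell, as did Lhx2 (-1.16), Pou3f2 (-0.52), Epha3 (-0.43) and Cux1 (-0.32) of the upper-layer list, several of which progenitors also express. On log2(TPM + 1) Epha3 (-0.20, adjusted p = 0.123 in limma) and Cux1 (-0.08, adjusted p = 0.263) did not pass.

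Cajal-Retzius genes mostly fell. These neurons of the marginal zone appear first and secrete reelin. Of 13 genes 8 were lower and 4 higher (median -1.26). The transcription factors Lhx1 (-2.91), Ebf2 (-2.70), Barhl2 (-2.60) and Ebf3 (-2.44) fell, and these also mark diencephalic or other early neurons. Reln itself rose, from 138, 112 and 111 CPM to 394, 416, 442 and 393 CPM (1.77, SE 0.09), and interneurons are another source of it.

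Genes of the ventral telencephalon went in both directions, more of them up. Of 37 genes 21 were higher and 9 lower (median 0.41). The list summed to 1341 to 1564 TPM at E12.5 and to 2674 to 2939 TPM at E18.5. Among those that rose were genes known from striatal neurons and interneurons: the dopamine receptors Drd1 (from 1.15 ± 0.05 to 18.1 ± 2.14 CPM; SD, n = 3 and 4; 3.98) and Drd2 (3.32), the serotonin receptor Htr3a (3.53), the neuropeptides Npy (2.92) and Sst (1.97) and the GABA-synthesizing enzyme Gad1 (2.19). Gad1 was at 46.7, 36.4 and 38.4 CPM at E12.5 and at 178, 182, 199 and 180.2 CPM at E18.5. Among those that fell were Gsx1 (-2.50), Nkx2-1 (-1.85) and Gsx2 (-1.82), transcription factors known from ventral progenitors.

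Genes of the synapse rose nearly without exception. Of 30 synaptic vesicle and release genes 29 were higher and 1 lower (median 1.29), of 32 glutamate receptor and postsynaptic genes 30 were higher and none lower (1.62), and of 18 GABA-A receptor and chloride cotransporter genes 17 were higher and none lower (1.80). At least a 2-fold rise was found for 24, 23 and 14 of them. Snap25, a SNARE protein of vesicle fusion, was at 57.3, 54.2 and 54.1 CPM at E12.5 and at 171, 172, 187 and 175 CPM at E18.5 (log2 fold change 1.68, SE 0.06). Grm5, a metabotropic glutamate receptor, was at 7.79, 5.71 and 5.50 CPM and then at 160.5, 154, 167 and 151 CPM, the largest change of the glutamate list (4.63, SE 0.12). Each late library exceeded the highest early one by more than 2 times in both genes. The scaffold Dlg2 (3.07), the AMPA receptor subunits Gria1 (2.85) and Gria2 (2.74), the NMDA receptor subunit Grin2b (2.83) and the kinase Camk2b (2.76) rose as well. Presynaptic genes with large changes were the synuclein Sncb (2.64), the vesicle protein Sv2c (2.51), synapsin Syn2 (2.40) and the vesicular glutamate transporter Slc17a7 (2.15). The exception of the vesicle list was Slc17a6, the other vesicular glutamate transporter, at 76.5, 68.8 and 66.1 CPM and then at 37.5, 31.3, 39.7 and 44.0 CPM (-0.88, SE 0.10).

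Inhibitory receptors and ion channels moved the same way. Gabra5 rose from 5.71 ± 0.60 to 56.6 ± 3.34 CPM (SD, n = 3 and 4; log2 fold change 3.30), Gabrg3 by 3.57 and Gabrd, from near 0, to 2.97 ± 0.28 CPM. Of 32 sodium, potassium and calcium channel genes 30 were higher and 1 lower (median 1.65), led by the inward rectifier Kcnj4 (3.76). Slc12a5, which exports chloride and makes GABA inhibitory, was at 34.5, 28.0 and 27.6 CPM and then at 103, 94.2, 109 and 117 CPM (1.82, SE 0.10). Slc12a2, which imports chloride, was at 59.8 to 65.8 CPM at E12.5 and at 63.1 to 78.6 CPM at E18.5, and its log2 fold change of 0.13 did not pass (adjusted p = 0.16 in edgeR). This depends on the processing: the value was 0.34 on log2(TPM + 1) (adjusted p = 0.0098 in limma) and -0.29 after the length correction (adjusted p = 0.00333 in edgeR).

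Pairs of related genes, an early-used and a late-used member, were compared as a ratio of TPM within each library, which removes library scaling. Of the 20 pairs, 4 join subunits of the BAF chromatin remodelling complex. The ratio of Actl6b, the subunit of neuronal BAF complexes, to Actl6a, that of progenitor complexes, was 0.92, 0.85 and 0.88 at E12.5 and 2.97, 3.46, 3.84 and 3.82 at E18.5. The ratio of Ss18l1 to Ss18 went from 0.48 to 0.55 at E12.5 to between 1.15 and 1.46 at E18.5, and that of Dpf1 to Phf10 from between 1.57 and 1.73 to between 3.26 and 3.67. Actl6a and Ss18 fell and Actl6b, Ss18l1 and Dpf1 rose. Dpf3, another neuronal subunit, moved against this pattern, with ratios to Phf10 of 0.10 to 0.13 and then 0.09 to 0.10, which overlapped. Over all 27 BAF genes 8 were higher and 13 lower, with a median near that of all genes (-0.10, and 0.09 in TPM).

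Other pairs shifted as well, not all of them past equal TPM. Among vesicular glutamate transporters Slc17a7 RNA overtook Slc17a6 RNA, with a ratio of 0.24, 0.27 and 0.32 at E12.5 and 1.75, 2.98, 2.12 and 2.14 at E18.5. The part of diencephalic tissue, described below, in this ratio was not tested. The ratio of Slc12a5 to Slc12a2 was 0.56 to 0.67 and then 1.53 to 2.28. The RNA-binding proteins Celf4 and Celf1 gave 0.72 to 0.83 and then 2.16 to 2.37. The Polycomb methyltransferases kept Ezh2 above Ezh1 at both ages, with an Ezh1 to Ezh2 ratio of 0.03 and then 0.11 to 0.19, as Ezh2 fell (-1.20) and Ezh1 rose (1.03). The helicases Eif4a2 to Eif4a1 went from 0.24 to 0.26 to 0.58 to 0.74, and the sodium channels Scn2a to Scn3a from 0.30 to 0.33 to 0.54 to 0.69. Not every pair separated the ages: the NMDA receptor subunits Grin2a to Grin2d gave 0.06 to 0.09 and then 0.05 to 0.10, although both genes rose.

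**Figure D3:**
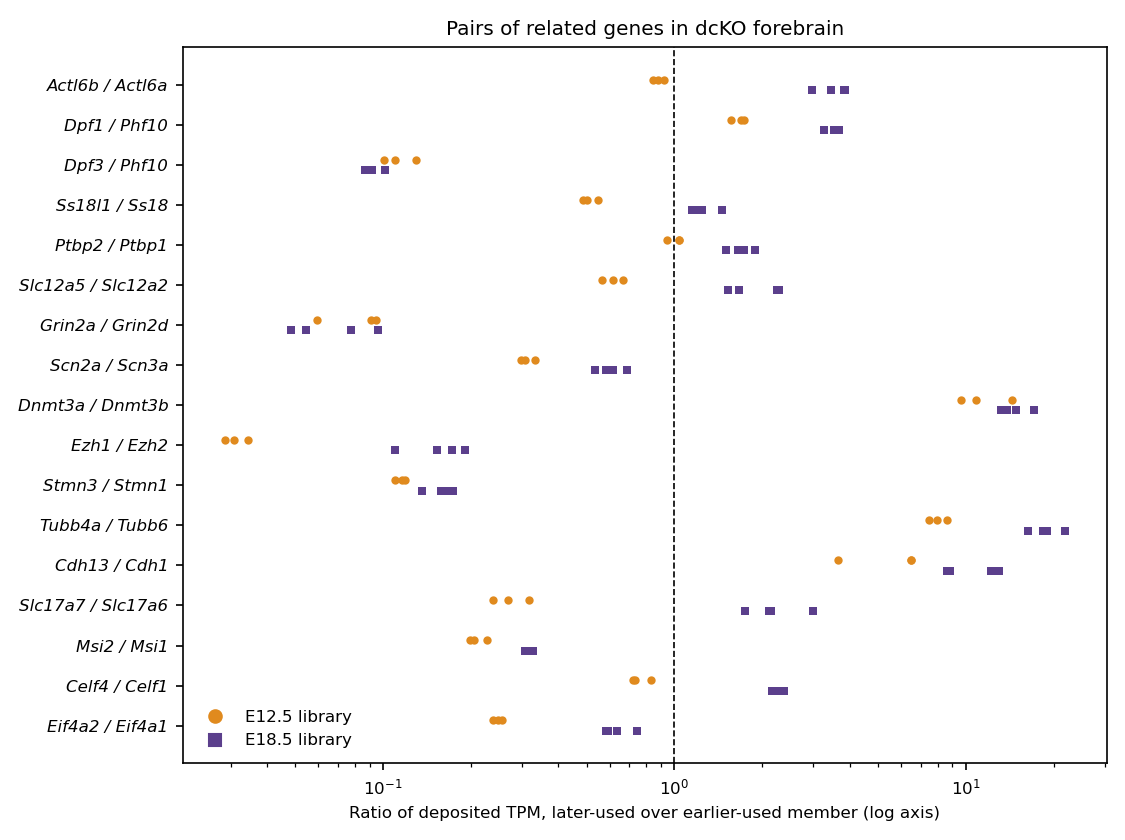
Ratio of the deposited TPM of a later-used to an earlier-used gene in each dcKO library, on a log axis, with circles for E12.5, squares for E18.5 and a dashed line at equal TPM; the 2 globin pairs are left out because some ratios have a denominator of 0, and 1 further pair is not shown. Actl6b over Actl6a moves from 0.85 to 0.92 to 2.97 to 3.84, while Grin2a over Grin2d overlaps between the ages.

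RNA-binding genes went in both directions, and genes of early developmental timing mostly fell. Among 30 neuronal RNA-binding genes 13 were higher and 13 lower (median 0.07); in TPM 16 were higher and 7 lower (median 0.31), and after the length correction 12 were higher and 14 lower (-0.05). The fetal messenger RNA binders Igf2bp1 (from 105 ± 6.55 to 20.1 ± 1.38 CPM; SD, n = 3 and 4; log2 fold change -2.41) and Igf2bp3 (-2.10) and the splicing repressor Ptbp1 (-1.16) fell, and Rbfox1, a splicing factor of mature neurons, rose (2.13). Of 26 heterochronic and fetal growth genes 21 were lower and 4 higher (median -1.23). Lin28a and Lin28b, which block maturation of let-7 microRNAs, fell by 4.34 and 0.99, and Sall4 by 3.06. The imprinted genes Dlk1 (-3.28) and Mest (-2.49) fell while Meg3, a noncoding RNA expressed from the other parental copy of the Dlk1 region, rose from 166, 190.3 and 193 CPM to 1418, 772, 1125 and 1169 CPM (2.61, SE 0.21). Of 29 DNA methylation and Polycomb genes 17 were lower and 7 higher (median -0.39), with Dnmt3b at -1.20.

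Signals that pattern the early forebrain mostly fell. Of 39 Wnt, Fgf, Bmp and hedgehog genes 27 were lower and 8 higher (median -0.96). The secreted factors Fgf8 (-5.64), Fgf17 (-4.97), Wnt8b (-4.84), Wnt3a (-4.12) and Fgf15 (-3.86) of the rostral and medial patterning centres had the largest changes. Wnt8b was at 30.2, 31.1 and 34.5 CPM and then at 2.46, 1.35, 0.92 and 0.78 CPM. Bmp6 was an exception that rose (2.10). In the Notch pathway 21 of 30 genes were lower and 6 higher (median -0.65), with the fringe Mfng (-2.52), the ligand Dll1 (-1.61) and the effector Hes1 (-1.58) lower and the neuronal ligand Dner (1.15) and the Deltex gene Dtx1 (1.06) higher. Of 40 axon guidance genes 26 were higher and 11 lower (median 0.41). Robo3, the receptor that commissural axons need to cross the midline, fell from 23 ± 1.41 to 1.96 ± 0.34 CPM (SD, n = 3 and 4; -3.52), and Sema7a (1.504) and Plxna4 (1.48) rose.

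Astrocyte genes rose, and oligodendrocyte genes went in both directions. Of 28 astrocyte genes 22 were higher and 4 lower (median 1.66). Gfap, the astrocyte intermediate filament, was at 0.08, 0.16 and 0.05 CPM at E12.5 and at 14.2, 12.1, 14.9 and 16.5 CPM at E18.5 (log2 fold change 7.19, SE 0.26). The water channel Aqp4 was at 0.58, 0.69 and 0.65 CPM and then at 15.4, 16.8, 19.9 and 18.4 CPM (4.79, SE 0.14). Both were near 0 in every early library and above 12 CPM in every late one. Agt, which encodes angiotensinogen, had 2 counts in all early libraries together and 692 in the late ones, 316 times higher by CPM (95% counting interval 87.3 to 2620). The adhesion gene Hepacam (4.69) and the folate enzyme Aldh1l1 (2.47) rose too. Among 18 genes of the oligodendrocyte lineage 9 were higher and 6 lower (median 0.23). Gpr17, which marks committed precursors, rose by 3.71, Olig1 by 2.95, Lhfpl3 by 2.60, Sox10 by 1.88 and the precursor receptor Pdgfra by 1.00, while Olig2 (-0.66) and Nkx2-2 (-2.47), which ventral progenitors use as well, fell.

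Markers of cells of other origin were also detected. Of 22 microglia genes 16 were higher and 2 lower (median 0.72), among them the perivascular macrophage receptor Mrc1 (1.76), the complement genes C1qa (1.29) and C1qc (1.27) and the receptor Csf1r (1.07), while Tmem119 fell (-1.22). Of 27 endothelial genes 12 were higher and 9 lower (median 0.19): the barrier transporters Slco1c1 (2.82) and Abcb1a (2.03) and the tight junction gene Cldn5 (1.37) rose, and Plvap, the diaphragm protein of leaky vessels, fell from 15.1, 17.9 and 17.4 CPM to 4.59, 4.04, 2.08 and 3.40 CPM (-2.33, SE 0.21). Of 23 meningeal and collagen genes 11 were higher and 9 lower (median 0.31). Ptgds, the prostaglandin D synthase of the leptomeninges, had the largest rise of all named genes with at least 10 CPM, from 1.75, 1.00 and 1.25 CPM to 241, 339, 290.3 and 496 CPM (7.995, SE 0.41). Lum (-2.82), Twist1 (-2.79) and Col1a1 (-1.48) fell; Col1a1 did not pass in the fit of all 14 libraries (adjusted p = 0.0611 in edgeR).

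Genes of the neighbouring diencephalon and hypothalamus were lower at the later age. All 24 genes of diencephalon and hypothalamus were lower at E18.5, 23 of them by at least 2-fold (median -4.84). Their summed level was 779 to 860.1 TPM at E12.5 and 134 to 225 TPM at E18.5. Tcf7l2, a factor of the thalamus, was at 327, 302 and 295 CPM and then at 12.93, 14.71, 14.04 and 12.85 CPM (-4.48, SE 0.07). Rax and Nkx2-4, defining genes of the hypothalamus, had no counts at E18.5 and were at least 260-fold and 249-fold lower, against a floor of 3 counts over the group. Six6 had 1 count at E18.5 and 779 at E12.5. The part of this tissue in the lower levels of Fgf8, Fgf15, Ebf2, Lhx1, Barhl2 and Nkx2-1, which the diencephalon also expresses, was not tested. Of 18 genes of telencephalic identity 5 were higher and 11 lower (median -0.76). The neuronal factor Bcl11a (0.86) was higher at E18.5, and Otx2, shared by diencephalon and choroid plexus, was lower (-3.02).

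Choroid plexus and blood RNA varied between the E18.5 libraries. The 20 choroid plexus genes summed to 904 to 962 TPM at E12.5, and to 3457, 3907, 426 and 3271 TPM at E18.5. With all libraries 7 were higher and 2 lower (median 1.00), and without replicate 12, 16 were higher. Ttr was at 272, 273 and 286 CPM and then at 1486, 1783, 0.96 and 1289 CPM, so the ages overlapped (2.04, SE 1.74, adjusted p = 0.35 in edgeR); without replicate 12 its log2 fold change was 2.46 (adjusted p = 7.37e-08). Erythroid genes summed to 15880 to 18480 TPM at E12.5 and to 795, 2879, 719 and 2709 TPM at E18.5, with 8 of 18 lower and none higher (median -1.64). The embryonic globins Hbb-y, at 1213, 1648 and 1650 CPM, and Hba-x, at 178, 301 and 261 CPM, were under 0.15 CPM in every E18.5 library. The adult genes Hba-a1 and Hba-a2 share nearly all their sequence, so the split of reads between them is uncertain. Hba-a1 fell from 979, 1118 and 1220 CPM to 35.9, 162, 32.7 and 164 CPM (-3.46, SE 0.73), with replicates 2 and 12 below replicates 3 and 13. The change of Hbb-bs (-1.60) did not pass (adjusted p = 0.083 in edgeR), but it passed with the same libraries in DESeq2 (0.0154), limma-voom (0.00668) and limma on TPM (0.0247), and in the edgeR fit of all 14 libraries (0.0184).

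The largest changes were also ranked over all genes with at least 10 CPM in the higher group, whatever their list. Beside Ptgds, Gfap and Aqp4, the 12 largest rises were the guanine deaminase Gda (6.46), Rasal1 (5.66), the sulfate transporter Slc13a4 (5.62), the neuronal surface protein Thy1 (5.603), the sulfotransferase Sult1a1 (5.37), Pla2g4e (5.20), Caln1 (5.08), Sla (4.93) and the dendritic protein Ddn (4.904). Gda was at 0.54, 0.49 and 0.55 CPM and then at 45.9, 41.4, 52.3 and 46.8 CPM. The largest falls were Hbb-y, Hba-x, Hbb-bh1 and Hsd3b6, then Krt5 (-9.55), the homeobox genes Dbx1 (-8.87), Shox2 (-8.82) and Barhl1 (-8.50), Gabrp (-8.20), Fndc3c1 (-7.02), Bhlhe23 (-6.86) and Gata3 (-6.81). Hsd3b6 had no counts at E18.5 and was at least 736-fold lower. Krt5, a keratin of basal epidermis, was at 26.9, 30.8 and 33.0 CPM in the early libraries.

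Lists of cytoskeletal and metabolic genes had smaller medians. Of 33 microtubule and cytoskeleton genes 19 were higher and 7 lower (median 0.43). Mapt, which encodes tau, was at 539, 458 and 461 CPM and then at 1339, 1481, 1559 and 1493 CPM (log2 fold change 1.60, SE 0.08), Tuba4a rose by 1.29, and Tuba1c (-1.76) and Tuba1b (-1.20) fell; these tubulins are close in sequence and could share reads. Of 47 cytosolic ribosomal protein genes 45 were lower and none higher, all by less than 2-fold (median -0.57). Of 32 nuclear subunits of oxidative phosphorylation 25 were lower and none higher (median -0.30, and 12 lower in TPM), and of 25 cholesterol genes 18 were lower and 3 higher (median -0.29, and 8 lower in TPM). After the length correction 44 ribosomal genes (median -0.44) and 19 respiratory genes (median -0.24) were lower, and 3 respiratory genes were higher. In glycolysis 10 of 26 were higher and 14 lower (median -0.34), and single enzymes moved further than the list: Pfkp, the platelet-type phosphofructokinase, rose from 17.23, 18.91 and 17.98 CPM to 221, 142, 197 and 207 CPM (3.40, SE 0.16), neuronal enolase Eno2 (2.16) and hexokinase Hk1 (1.15) rose, and pyruvate kinase Pkm fell (-1.01).

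Genes tied to p53, interferon and neuronal activity were counted last. Of 30 p53 targets 7 were higher and 14 lower (median -0.19). In TPM 8 were higher and 7 lower (median 0.05), and without E12.5 replicate 2 only 4 were higher. Gtse1 (-1.90), Gadd45a (-1.83), Btg2 (-1.74) and Ckap2 (-1.45) fell, of which Gtse1 and Ckap2 are also known from dividing cells. Plk2 (1.04) and the apoptosis gene Bbc3 (0.41) rose. Of 28 interferon and MHC class I genes 16 were higher and 1 lower (median 0.97), and 10 were higher without E12.5 replicate 10. Isg15 was at 0.92, 0.57 and 0.43 CPM and then at 1.47, 4.49, 1.49 and 2.02 CPM (1.92, SE 0.45, adjusted p = 0.00345 in edgeR). Replicate 3 was the highest E18.5 library for it, and its level stayed low in all. Of 24 immediate-early genes 14 were higher and 6 lower (median 0.82). Npas4, which synaptic activity induces, rose from 0.62 ± 0.15 to 5.36 ± 0.29 CPM (SD, n = 3 and 4; 3.12), Fosl2 by 2.96, Nr4a3 by 2.88 and Egr3 by 2.65. Egr4 had no counts at E12.5 and was at least 55.8-fold higher at E18.5.

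The stage change in dcKO was then set against that in ff, to ask where the 2 genotypes take different courses. In a single fit of all 14 libraries the change differed at 3195 of 19327 genes (16.5%), 1376 with a higher (7.12%) and 1819 with a lower (9.41%) value in dcKO than in ff. The share of higher calls was 43.1% on counts and 81.3% on TPM, where the median of all genes was 0.14. Without E12.5 dcKO replicate 10 or replicate 6 the count of genes dropped to 1690 and 1733. The ff libraries include a shallow one too, E12.5 replicate 9, with 4.92 M counts. Leaving out that library and the shallow E18.5 dcKO replicate 2 was chosen after seeing the data. It gave 3310 genes and kept 2650 of the 3195. Mitotic genes fell less in dcKO: 33 of 40 had a higher value and none a lower, with a median stage change of -1.77 in dcKO and -2.47 in ff. Replication genes gave 20 of 40 higher and none lower (-1.53 and -2), and apical progenitor genes 16 of 28 higher and 2 lower (-0.72 and -1.63). Intermediate progenitor genes gave 10 of 21 higher and 2 lower. Ventral telencephalic genes gave 19 of 37 higher and none lower (0.41 in dcKO and -0.31 in ff), and 12 higher without E12.5 dcKO replicate 6. Interferon and MHC class I genes gave 9 of 28 higher and none lower (0.97 in dcKO and -0.50 in ff).

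The 8 genes with the lowest p for a higher value in dcKO came from several classes. Gli3, a transcription factor of dorsal progenitors, changed by -1.26 in dcKO and -2.81 in ff, a difference of 1.55 (SE 0.14, adjusted p = 3.2e-05 in edgeR). The radial glial genes Nr2e1 (difference 1.19) and Sox9 (1.01), the intermediate progenitor gene Eomes (1.02), the zinc finger gene Sall1 (1.33), the phosphatase Dusp16 (1.03) and the manganese transporter Slc30a10 (1.51) shared this direction. Neurog1 changed by -4.52 in dcKO and by -7.29 in ff, a difference of 2.78.

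Lower values in dcKO than in ff were found most often for cholesterol and respiratory genes, and less evenly for neuronal ones. Cholesterol genes gave 19 of 25 lower and none higher, with a median stage change of -0.30 in dcKO and 0.33 in ff. Nuclear respiratory subunits gave 20 of 32 lower and none higher (-0.31 and 0.11), a count that was 7 in TPM. It was 5 and 8 without E12.5 dcKO replicate 10 or 6, 8 without E12.5 ff replicate 4, and 11 without E18.5 ff replicate 17 or E18.5 dcKO replicate 13. Microtubule genes gave 16 of 33 lower and none higher. Upper-layer genes gave 9 of 20 lower and 1 higher, but 2 lower and 3 higher in TPM, and synaptic vesicle genes gave 11 of 30 lower and none higher, but 1 lower and 1 higher in TPM. For the vesicle genes the lower count was 5 without E12.5 ff replicate 7, 6 and 7 without E12.5 dcKO replicate 2 or 10, and 7 without E18.5 ff replicate 17. Other neuronal lists had few lower values: 6 of 32 glutamate receptor genes, 3 of 18 GABA-A receptor genes (with 2 higher) and 4 of 32 channel genes (with 2 higher), beside 9.41% of all genes. The stathmins Stmn2 (0.73 in dcKO and 1.73 in ff, difference -1.002) and Stmn4 (difference -0.90), the cholesterol enzymes Mvd (-1.14) and Fdft1 (-0.88), the fatty acid carrier Fabp3 (-1.42), the dynein subunit Dync1i1 (-1.63), the malic enzyme Me1 (-0.99) and the Deltex gene Dtx4 (-1.14) were the 8 with the lowest p. Dtx4 fell in dcKO (-0.77) and changed by 0.37 in ff. Sbno1 itself changed by 0.02 in dcKO and by -0.49 in ff, a difference of 0.51 (SE 0.10, adjusted p = 0.0032 in edgeR), and for Trp53 the difference was -0.01 (adjusted p = 0.97). Sex was unevenly spread over these groups, since 3 of 7 ff libraries and none of the dcKO libraries carried Xist, and its part was not tested.

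**Figure D4:**
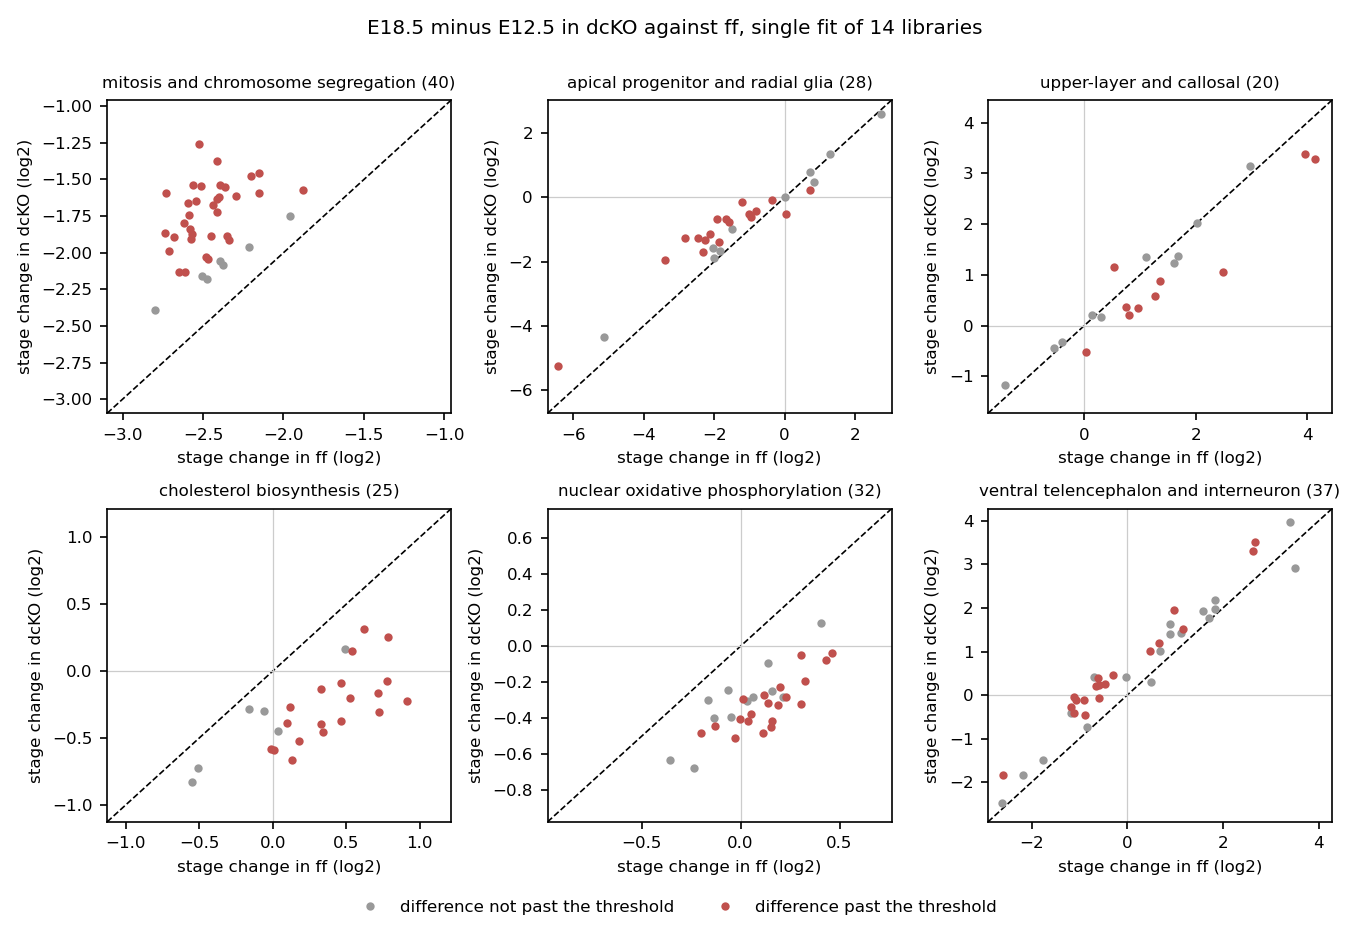
Stage change (E18.5 minus E12.5, log2) in dcKO against that in ff for the members of 6 gene lists, with a dashed line of equal change and red points where the difference passed the threshold. All 40 mitotic genes lie above the line, and cholesterol and respiratory genes lie below it, most of them with opposite signs in the 2 genotypes.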

How the data were processed

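RNA was measured in 14 libraries, of which the 7 labelled dcKO carry the results. The authors trimmed reads with Trim Galore, aligned them with STAR and quantified genes with RSEM, per the submitters' processing notes; the genome build, versions and strand setting are not given in the sources used here. The deposited files hold RSEM expected counts and TPM per gene, 1 table per age. Expected counts were rounded and joined on gene ID, filtered with filterByExpr, scaled by TMM and fitted with edgeR 4.0.16 (quasi-likelihood, robust) in R 4.3.3, with Benjamini-Hochberg adjustment and a threshold of 0.05. The dcKO minus ff difference of stage changes came from 1 fit of all 14 libraries. Alternatives used DESeq2 1.42.0, limma 3.58.1 (log2(TPM + 1) with a pseudocount of 1), other scalings and filters, thinning, a length correction and leaving out each library. Scripts were tested on simulated data. Total counts set the precision, from 5.98 M (M is 1e+06) upwards in the dcKO libraries and from 4.92 M over all 14. The intervals cover counting error only.

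The members and all gene lists were chosen with earlier results of these data known. Genes were named by rule: the targeted genes and the pairs, the 12 largest rises and 12 largest falls with at least 10 CPM, up to 6 members per list with at least 2 CPM plus those against their list's majority, and 8 genes per direction for the difference from ff. Lin28a, Lin28b, Mcm3, Pcna, Ccnb2, Mki67, Tbr1, Sst, Snap25, Aldh1l1, Pdgfra, Cldn5, Ttr, Hbb-bs and Egr4 fall outside it and were chosen after their values were seen. A few genes of the lists, and 1 pair, are not reported here by name.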

Additional observations from a re-analysis of the deposited data

Results flagged for a closer look

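In the 4 E18.5 dcKO libraries, 14 of 226 tested values had 1 library far from the other 3 by Dixon's criterion, and chance gives about 1 in 20. The total count of replicate 2, 5.98 M (M is 1e+06), was the first of these. Replicate 2 also stood apart for Neurod4 (2.29 CPM), Drd2 (19.7 CPM), Shox2 (0.16 CPM) and Dll1 (38.5 CPM). Replicate 12 stood apart for Ldb2 (60.4 CPM), Pou3f2 (65.1 CPM), Gad1 (199 CPM), Ss18 (60.3 CPM), Hbb-bh1 (0.037 CPM) and Hes1 (11.8 CPM). Replicate 3 stood apart for Olig2 (25 CPM) and Six6 (0.0204 CPM), and replicate 13 for Fdft1 (139 CPM). The values of Six6 and Hbb-bh1 rest on 1 and 2 counts.

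The stage change differed between dcKO and ff, by the interaction term of edgeR's quasi-likelihood test, for Sbno1 and for the 16 genes chosen for the lowest p; other named genes passed too. The dcKO minus ff difference in log2 units was positive for Sbno1 (0.51), Nr2e1 (1.19), Sox9 (1.01), Gli3 (1.55), Neurog1 (2.78), Eomes (1.02), Dusp16 (1.03), Sall1 (1.33) and Slc30a10 (1.51). It was negative for Fabp3 (-1.42), Fdft1 (-0.88), Stmn4 (-0.90), Mvd (-1.14), Stmn2 (-1.002), Dtx4 (-1.14), Dync1i1 (-1.63) and Me1 (-0.99).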

How the results depend on the processing

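The number of genes past the threshold between the ages stayed within 1.5 times of 12210 under every alternative, and ran from 10815 to 12616 when single libraries were left out. The count with at least a 2-fold change, 4426, was 2764 on log2(TPM + 1) with limma and 2693 when edgeR tested against a 2-fold change, and 4163 to 4551 with single libraries left out. The difference from ff, 3195 genes, ran from 1690 (without E12.5 dcKO replicate 10) and 1733 (without replicate 6) to 3307 with single libraries left out; the cause was not tested. Reversed log2 fold changes among named genes were Ttr -0.43 with limma-voom, Celf1 -0.083 and Fdft1 0.060 in TPM, and Sbno1 -0.44, Slc12a2 -0.29 and Celf1 -0.35 with the length correction. Without E12.5 replicate 10 Sbno1 was at -0.032 and Celf1 at -0.00592, the lowest of ranges that reached 0.0851 and 0.0913 without replicate 2, and with E18.5 replicates 3 and 13 alone, an alternative chosen after seeing the data, Sbno1 was at -0.0238. The Trp53 difference from ff, -0.01 as reported, was 0.0218 with DESeq2 size factors, 0.00564 with upper quartile scaling, 0.0156 with a minimum of 1 CPM, 0.0276 with the DESeq2 Wald test, 0.0412 with limma-voom, 0.159 in TPM, 0.059 with the length correction and 0.123 without both shallow libraries, and ran from -0.0959 to 0.0708 with single libraries left out, at 0.0372 without E18.5 dcKO replicate 2. No other named gene reversed under these alternatives; 12 values for the stage change lost the threshold and 9 gained it, and 50 counts of list members moved by over 1.5 times. Among the latter, lower histone genes went from 12 to 2 with a minimum of 1 CPM. No paired analysis was possible, because the labels state no link between libraries of different ages. The shallow E18.5 replicate 2 limits values of low genes there. By Dixon's criterion it also stood apart as the highest E18.5 dcKO library at 585 of 15206 genes and as the lowest at 212. Replicate 3 did so at 127 and 66, replicate 12 at 71 and 66, and replicate 13 at 56 and 32. By chance about 1 in 20 genes would be flagged, over all E18.5 dcKO libraries and both directions together. The part of depth in these counts was not tested.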

Other observations

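The mitochondrially encoded gene mt-Nd6, the only protein-coding gene on the light strand of that genome, was at 180.9 CPM in E18.5 dcKO replicate 2 and at 80.3 CPM in E12.5 ff replicate 9, the 2 shallow libraries. In the other 12 libraries it was between 1.84 and 7.60 CPM, while its neighbour mt-Nd5 was between 357 and 811 CPM in all 14. The keratin gene Krt5 was at 56.9 and 38.2 CPM in E12.5 ff replicates 4 and 7 and at 0 in replicate 9, and at 57.6 CPM in E18.5 ff replicate 8.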
